A study of Mus musculus with 8 samples.

Results

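The genes described here encode the proteasome. They are the 49 genes of the 21058 in the deposited RNA-seq tables whose mouse symbol begins with Psm, goes on with a letter from a to g and ends in a number with at most a letter after it. This takes in the subunits of the core and regulatory particles, the testis subunit *Psma8*, the activators, the inhibitor and the assembly chaperones, and leaves out *Psmc3ip*, which is a recombination factor. The members lie on 15 autosomes and, for 1 gene, *Psmd10*, on the X chromosome.

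The proteasome degrades proteins that carry chains of ubiquitin. Its core particle is a barrel of stacked rings, with alpha subunits in the outer rings that gate the entry and beta subunits in the inner rings that hold the proteolytic sites. The regulatory particle caps the barrel: a base of ATPases unfolds the substrate, and a lid removes its ubiquitin. In the testis some core subunits are replaced by germ cell forms, and the activator encoded by *Psme4* is known for its part in the loss of core histones as spermatids condense their chromatin.

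RNA was measured in pachytene spermatocytes, germ cells in mid-prophase of meiosis, that had been enriched from adult testes by Sta-Put sedimentation, in which cells settle at unit gravity and fractions are pooled. The 4 *Arid1a* cKO libraries came from *Arid1a* fl/fl; *Stra8-Cre* Tg/0 males, in which a Cre that is active from spermatogonia on deletes floxed *Arid1a*, the gene of a DNA-binding subunit of the BAF chromatin remodeler. The 4 *Arid1a* WT libraries came from *Arid1a* fl/fl or *Arid1a* fl/+ males, for which no Cre is stated, so that both genotypes carry floxed alleles. The floxed mice were kept on a CD1 background. Excision is described as incomplete, with some *Arid1a* cKO spermatocytes that still made ARID1A. The labels call the libraries biological replicates, and the methods speak of RNA purified in quadruplicate from frozen pellets. For Sta-Put the methods combine testes from several adult males, so a library does not stand for a single animal. The fractions kept are described as mostly pachytene spermatocytes by light microscopy. The p-values below thus measure the spread between these libraries, and it is not known how much of that spread is between animals.

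Libraries held 15850961 to 22044507 estimated counts. *Arid1a* RNA in *Arid1a* WT libraries 1 to 4 was 105, 128, 121 and 98.8 CPM (counts relative to the library total after TMM scaling), and in *Arid1a* cKO libraries 1 to 4 it was 76.4, 81.0, 82.9 and 78.3 CPM. All the *Arid1a* cKO values were below all the *Arid1a* WT values (log2 fold change -0.51, standard error 0.07). Markers of the labelled cell type were present in every library, and of 10 pachytene genes 3 were higher and 7 lower in *Arid1a* cKO, with a summed level of 8238 to 9766 CPM in *Arid1a* WT and 6876 to 7361 CPM in *Arid1a* cKO. All 17 round and elongating spermatid markers were higher, and their sum went from between 4002 and 4466 CPM to between 13972 and 14377 CPM. Among leptotene and zygotene markers 5 of 8 were higher and 3 lower (403 to 457 CPM in *Arid1a* WT, 316 to 336 CPM in *Arid1a* cKO), and among spermatogonial markers 9 of 11 were higher and 1 lower (203 to 208 CPM against 195 to 207 CPM). Sertoli cell markers were lower at 8 of 8 genes (507 to 575 CPM against 146 to 153 CPM), and Leydig cell markers at 5 of 6 genes (56.6 to 60.2 CPM against 8.11 to 8.61 CPM). Macrophage and blood markers were higher at 10 of 12 genes and lower at 1 (7.36 to 9.14 CPM against 18.2 to 20.7 CPM). In every list 0 markers were at 0 in all libraries. The part that this shift in cell type markers has in the proteasome values was not tested, and in bulk RNA fewer cells of a type and less RNA per cell cannot be told apart.

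More proteasome genes fell than rose in *Arid1a* cKO. Of the 48 members with enough counts to be tested, 7 were called higher in *Arid1a* cKO, which is 14.6% where 36.5% of all 17643 tested genes were called higher. Another 23 were called lower, which is 47.9% where 37.5% of all tested genes were called lower, and 18 were not called. Calls rest on the quasi-likelihood test of edgeR at an adjusted p (Benjamini-Hochberg) of no more than 0.05. The median log2 fold change of the members was -0.15, beside -0.02 over all tested genes. It was -0.25 without *Arid1a* cKO library 1 and between -0.22 and -0.14 without any other single library, -0.25 with library sizes without TMM (-0.12 over all tested genes), -0.28 with length offsets, and -0.35 and -0.37 on the log2(TPM + 1) and log2(TPM + 0.1) scales. On the counts, 34 of the 48 members had a negative value. The 4 values of one genotype all lay to the same side of the other genotype's 4 values at 27 of 48 members, 6 of them above and 21 below, which is 56.3% where 68.9% of all tested genes were separated in this way.

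The largest rises were those of *Psmd10*, *Psma6* and *Psmf1*, the only 3 members that were called and at least 1 log2 unit higher, among 48 tested (20.6% of all tested genes met that rule). *Psmg3*, *Psma8*, *Psmb11*, *Psmd14* and *Psmc1* were called and at least 1 log2 unit lower, 5 of 48 where 16.0% of all tested genes were. The other called members moved by less. The remaining member, *Psme2b*, a copy of the activator gene *Psme2*, had 0 counts and was listed at 0 TPM in all 8 libraries, and 78.4% of the words of 31 bases in its transcripts recur in other genes, most of them in *Psme2*.

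**Figure D1:**
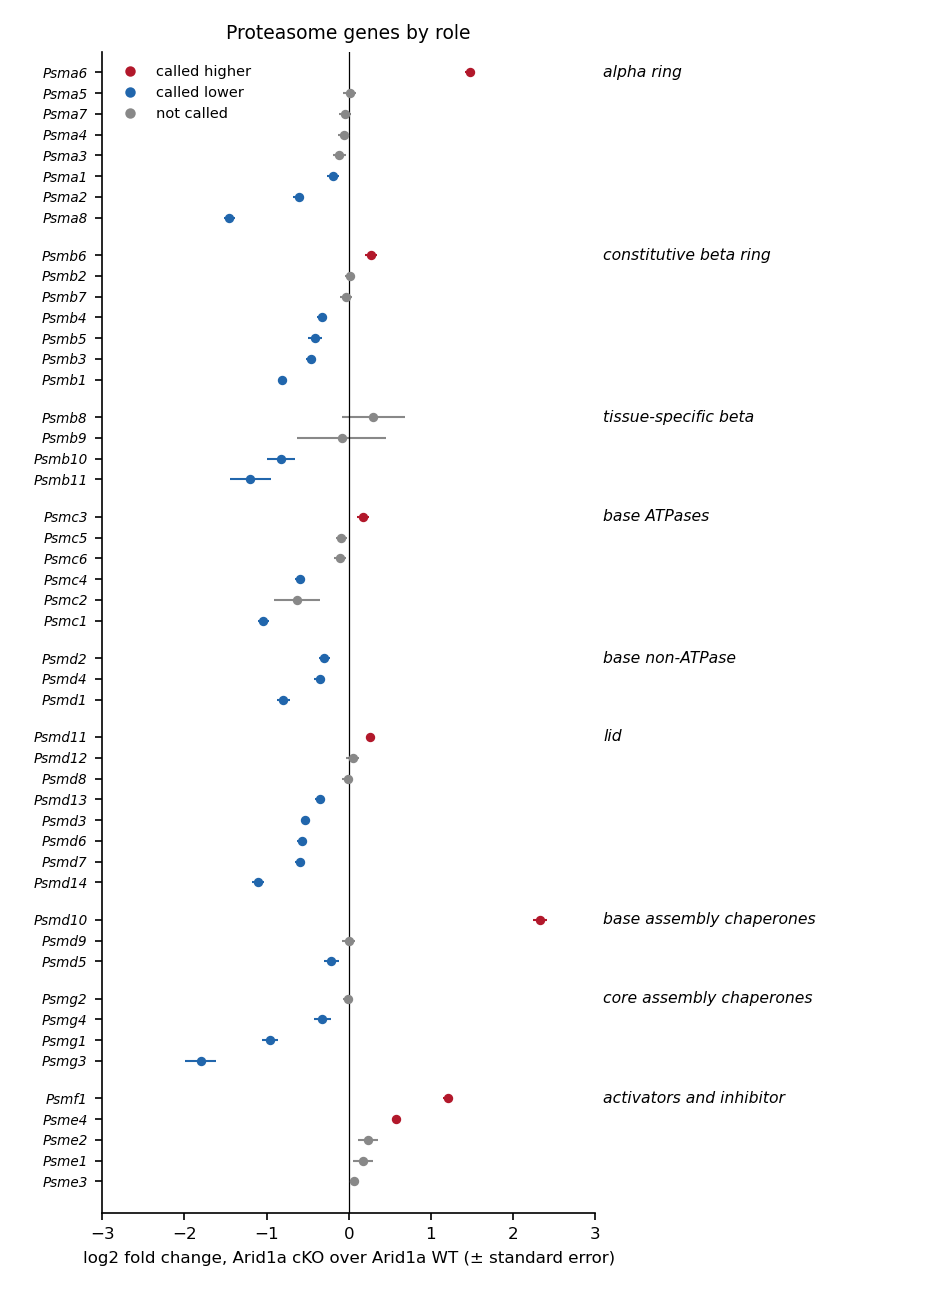
Log2 fold change of each of the 48 tested proteasome genes, *Arid1a* cKO over *Arid1a* WT, on the x axis, grouped by role and sorted within it; bars are standard errors from edgeR. Red points are the 7 genes called higher, blue points the 23 called lower and grey points the 18 not called, and *Psmd10* at 2.32 and *Psmg3* at -1.80 mark the ends.

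*Arid1a* WT libraries differed among themselves in a shared direction. Of the 46 members whose average log2 CPM was 1 or more, *Arid1a* WT library 3 had the lowest of the 4 *Arid1a* WT values at 33 and library 4 had the highest at 31. In *Arid1a* cKO the lowest value was spread over the libraries, with 16 of 46 in library 3 and 13 in library 4. Without *Arid1a* WT library 3 the test called 6 members higher and 24 lower, and without library 4 it called 7 higher and 23 lower.

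The sequences just before the start sites of the members called and at least 1 log2 unit higher or lower are shown here so that they can be read beside the values that follow. Start sites are those of RefSeq on GRCm38.p6, each run is the 250 bases before the start in 5′ to 3′ direction on the gene's own strand, and capitals mark CCAAT or its complement ATTGG, the letters of the CCAAT box. *Psma6* has 2 RefSeq starts in the promoter table and both are given, the second of them inside the span of the gene. The 1 start listed there for *Psmf1* also lies inside its gene span, so its run does not precede the outermost end of that gene. Of the 8 such members *Psma8* is left out, since it lies on a chromosome whose sequence is not shown here. The first 3 genes rose and the last 4 fell.
Psmd10 (chrX:140956712-140956961, minus strand): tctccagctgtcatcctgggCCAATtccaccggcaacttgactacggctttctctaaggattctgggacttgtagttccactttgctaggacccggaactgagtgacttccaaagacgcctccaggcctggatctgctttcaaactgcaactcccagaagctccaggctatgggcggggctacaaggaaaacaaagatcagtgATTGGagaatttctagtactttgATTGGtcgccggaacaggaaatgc
Psma6, first start (chr12:55383972-55384221, plus strand): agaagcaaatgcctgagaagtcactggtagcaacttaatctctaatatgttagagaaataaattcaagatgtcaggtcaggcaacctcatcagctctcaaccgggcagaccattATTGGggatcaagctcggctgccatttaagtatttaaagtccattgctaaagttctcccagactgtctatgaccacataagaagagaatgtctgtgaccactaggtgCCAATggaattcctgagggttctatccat
Psma6, second start (chr12:55398575-55398824, plus strand): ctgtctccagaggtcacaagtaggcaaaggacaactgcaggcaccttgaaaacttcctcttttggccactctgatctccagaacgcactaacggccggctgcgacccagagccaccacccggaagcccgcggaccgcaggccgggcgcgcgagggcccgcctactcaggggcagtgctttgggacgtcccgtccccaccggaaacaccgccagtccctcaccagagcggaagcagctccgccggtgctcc
Psmf1 (chr2:151741311-151741560, minus strand): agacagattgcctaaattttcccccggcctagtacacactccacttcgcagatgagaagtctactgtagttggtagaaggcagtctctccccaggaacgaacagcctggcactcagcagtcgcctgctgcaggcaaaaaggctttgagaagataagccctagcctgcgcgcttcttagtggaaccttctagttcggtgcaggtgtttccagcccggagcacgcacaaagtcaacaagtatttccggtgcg
Psmg3 (chr5:139826895-139827144, minus strand): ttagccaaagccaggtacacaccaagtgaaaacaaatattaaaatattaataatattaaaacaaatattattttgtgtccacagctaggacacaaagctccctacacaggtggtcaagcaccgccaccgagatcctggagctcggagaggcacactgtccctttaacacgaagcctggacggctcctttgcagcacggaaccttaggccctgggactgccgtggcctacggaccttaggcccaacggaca
Psmb11 (chr14:54625060-54625309, plus strand): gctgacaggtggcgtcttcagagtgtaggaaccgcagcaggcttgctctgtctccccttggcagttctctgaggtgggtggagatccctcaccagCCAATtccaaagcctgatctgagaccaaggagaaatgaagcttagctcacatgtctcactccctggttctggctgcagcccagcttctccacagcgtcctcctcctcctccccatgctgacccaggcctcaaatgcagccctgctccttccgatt
Psmd14 (chr2:61711444-61711693, plus strand): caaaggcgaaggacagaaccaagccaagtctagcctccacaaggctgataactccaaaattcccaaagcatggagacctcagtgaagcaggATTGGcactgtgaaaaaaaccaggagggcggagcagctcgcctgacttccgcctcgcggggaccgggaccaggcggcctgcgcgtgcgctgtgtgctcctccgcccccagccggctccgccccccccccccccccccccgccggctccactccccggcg
Psmc1 (chr12:100109952-100110201, plus strand): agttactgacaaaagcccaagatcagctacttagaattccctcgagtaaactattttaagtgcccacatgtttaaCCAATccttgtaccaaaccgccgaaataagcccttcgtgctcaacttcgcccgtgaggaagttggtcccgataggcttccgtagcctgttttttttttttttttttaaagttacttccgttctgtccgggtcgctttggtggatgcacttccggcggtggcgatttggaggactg
Among the members that rose, the *Psmd10* run held the box 3 times, the run of the first *Psma6* start 2 times, and the second *Psma6* start and *Psmf1* 0 times. Among those that fell, *Psmb11*, *Psmd14* and *Psmc1* each held it 1 time and *Psmg3* 0 times. The letters thus occurred both in members that rose and in members that fell.

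A promoter window of 250 bases before to 50 bases after the start was at hand for 41 of the 49 members and for 27025 mouse genes, and both strands were searched. The CCAAT box occurred in 14 of the 41 members (34.1%, against 41.1% of all genes). TGACNNNGC, the core of the antioxidant response element bound by NFE2L1 and NFE2L2, occurred in 6 members (14.6%, against 14.0%), which were *Psmb5*, *Psmb6*, *Psmc6*, *Psmd12*, *Psmd9* and *Psme4*. Of these 6, *Psmb6* and *Psme4* were called higher, *Psmb5* lower and the other 3 were not called. TGACGTCA, the cyclic AMP response element, which shares its first 4 letters with the antioxidant core, occurred in 0 members and 2.03% of all genes. The palindrome of nuclear respiratory factor 1 occurred in *Psma2* and *Psmg1*, both called lower (4.88% of members, against 1.07% of all genes). These matches describe the letters in the window and are not evidence of binding.

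The alpha ring forms the gated ends of the core particle. Of its 8 genes 1 was called higher and 3 lower (beside 36.5% and 37.5% of all tested genes), and the median log2 fold change was -0.09. *Psma8* and *Psma6* moved furthest, in opposite directions. *Psma8* (Entrez 73677, chr18:14706135-14762301) encodes the germ cell alpha subunit that takes the place of PSMA7 in the core particle of spermatocytes. Its level was 399, 354, 319.9 and 401 CPM in *Arid1a* WT libraries 1 to 4 and 135, 139, 130.3 and 134 CPM in *Arid1a* cKO libraries 1 to 4. The genotypes did not overlap, and the *Arid1a* cKO values lay within a narrow range. Transcript abundance was 2.74-fold lower in *Arid1a* cKO (log2 fold change -1.46, standard error 0.07, adjusted p = 8.83e-11, edgeR).

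*Psma7* (Entrez 26444, chr2:180036367-180042464), the somatic partner gene, was at 18.9, 15.5, 16.7 and 18.6 CPM in the *Arid1a* WT libraries and at 16.7, 16.8, 17.7 and 16.3 CPM in the *Arid1a* cKO libraries. The ranges overlapped, at -0.04 on the log2 scale (standard error 0.08, adjusted p = 0.629, edgeR). On the TPM scale, which corrects for transcript length and so lets genes be compared, *Psma8* was at 360.3 ± 23.9 TPM in *Arid1a* WT and 118 ± 4.31 TPM in *Arid1a* cKO (SD, n = 4), and *Psma7* at 33.4 ± 1.68 and 30.2 ± 2.15 TPM. *Psma8* was thus above *Psma7* in all 8 libraries. Its share of the summed TPM of both genes was 91.4, 92.0, 90.7 and 91.8% in *Arid1a* WT and 79.9, 80.7, 77.5 and 80.5% in *Arid1a* cKO, with no overlap. This share is a ratio within a library and does not move with the scaling of the library.

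*Psma6* (Entrez 26443, chr12:55384222-55418459) encodes the alpha subunit next to PSMA2 in the ring. Its RNA was at 127, 119.7, 112 and 136 CPM in *Arid1a* WT and at 366, 345, 331 and 341 CPM in *Arid1a* cKO. Every *Arid1a* cKO value was more than 2 times the highest *Arid1a* WT value. The rise was 2.79-fold (log2 fold change 1.48, standard error 0.06, adjusted p = 2.07e-11, edgeR), and it lay between 1.44 and 1.54 with each library left out in turn. In TPM, *Psma6* went from 230.3 ± 11.7 to 639 ± 18.3 (SD, n = 4). It thereby passed *Psma8* as the most abundant alpha ring RNA.

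Of the other alpha ring genes, *Psma2* fell by 0.61 log2 units (standard error 0.07), with 36.6 to 44.1 CPM in *Arid1a* WT and 25.0 to 28.0 CPM in *Arid1a* cKO. *Psma1* fell by 0.19 (standard error 0.07, adjusted p = 0.0213, edgeR), with overlapping ranges, and the call was lost in 6 of the 17 alternatives (adjusted p 1.55e-04 to 0.0845 over all alternatives), which were DESeq2, its size factors within edgeR, and the fits without *Arid1a* cKO library 3 or 4 or *Arid1a* WT library 1 or 4. *Psma3*, *Psma4* and *Psma5* were not called, with log2 fold changes of -0.11, -0.06 and 0.01, and they share 20.3%, 21.8% and 61.0% of their sequence words of 31 bases, mainly with pseudogenes, so their counts are uncertain. Without *Arid1a* cKO library 1, *Psma3* was called lower. The most abundant alpha ring RNA exceeded the least abundant, *Psma2* in both genotypes, by 11.0 times in *Arid1a* WT and 32.4 times in *Arid1a* cKO in mean TPM.

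**Figure D2:**
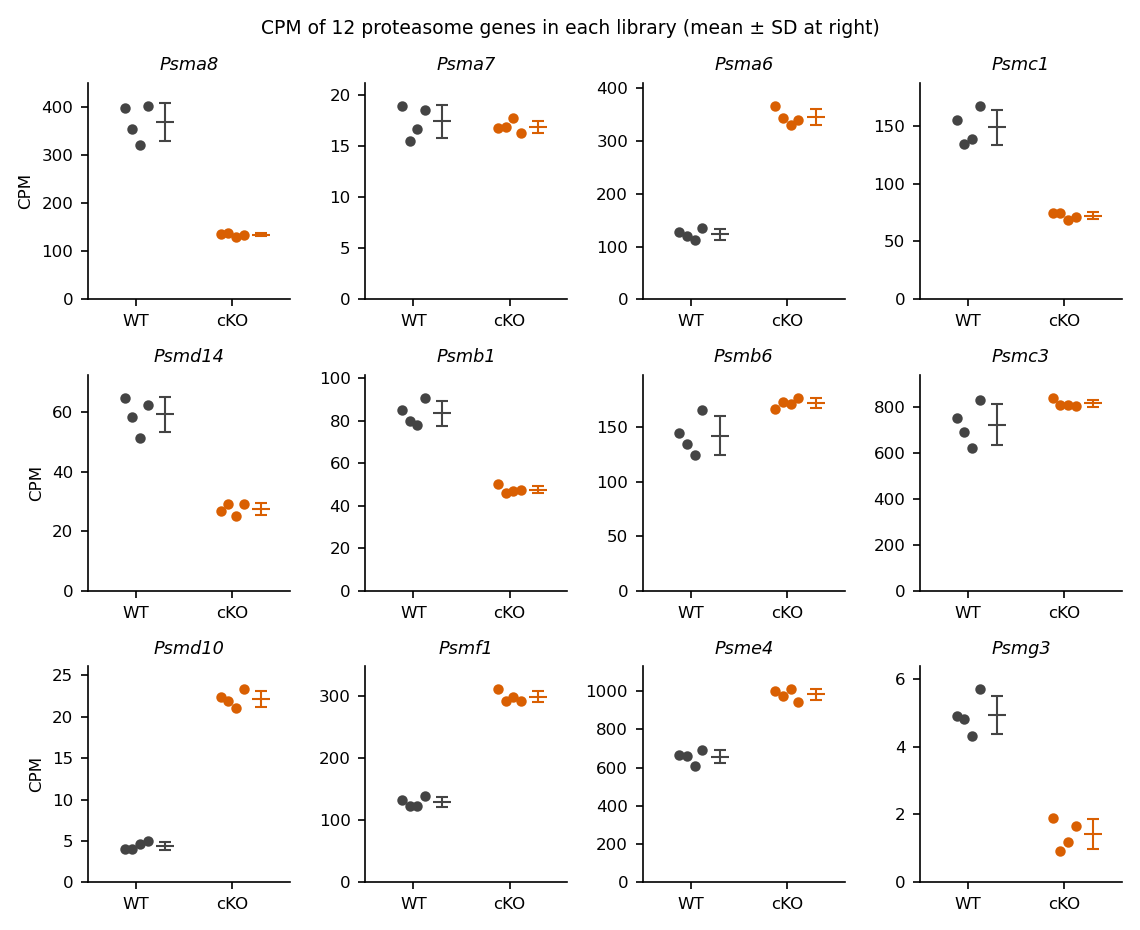
Level in CPM of 12 proteasome genes in each library, with 4 *Arid1a* WT points in grey and 4 *Arid1a* cKO points in orange, and the mean ± SD at the right of each group; each panel has its own y axis from 0. *Psma8* lies between 319.9 and 401 CPM in *Arid1a* WT and between 130.3 and 139 CPM in *Arid1a* cKO, and *Psmc3* and *Psma7* are panels in which the genotypes overlap.

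The beta ring holds the proteolytic sites. Of its 7 constitutive genes 1 was called higher and 4 lower (beside 36.5% and 37.5% of all tested genes), with a median log2 fold change of -0.32. Only *Psmb6*, *Psmb7* and *Psmb5* encode subunits with an active site, and by edgeR on the counts *Psmb5* was called lower, *Psmb6* higher and *Psmb7* was not called. *Psmb5* (chr14:54614120-54617995), the chymotrypsin-like subunit, was at 51.1, 46.6, 42.0 and 55.8 CPM in *Arid1a* WT and at 38.5, 39.6, 32.4 and 37.1 CPM in *Arid1a* cKO. The genotypes did not overlap (log2 fold change -0.41, standard error 0.09, adjusted p = 6.30e-04, edgeR), but 71.7% of the 31-base words of *Psmb5* recur elsewhere, chiefly in *Gm3375*, and its count is uncertain.

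*Psmb6* (chr11:70525324-70527858), the caspase-like subunit, was at 145, 134, 125 and 166 CPM in *Arid1a* WT and at 167, 174, 171 and 177 CPM in *Arid1a* cKO. The lowest *Arid1a* cKO value was just above the highest *Arid1a* WT value, which was that of library 4. The rise was 1.21-fold (log2 fold change 0.27, standard error 0.07, adjusted p = 0.00353, edgeR). *Psmb7* (chr2:38588046-38643952), the trypsin-like subunit, was at 133, 131, 116 and 156 CPM in *Arid1a* WT and at 135, 134, 128 and 126 CPM in *Arid1a* cKO. Here the *Arid1a* cKO values lay inside the *Arid1a* WT range (log2 fold change -0.04, standard error 0.07, adjusted p = 0.642, edgeR). It was called lower in 3 of the 17 alternatives, which were library sizes without TMM and both TPM scales (log2 fold changes -0.13, -0.16 and -0.17, adjusted p 0.0330 to 0.908 over all alternatives), and 11.8% of its exon bases overlap exons of *Nek6* on the other strand. In TPM the order of these genes was *Psmb6*, *Psmb7* and *Psmb5* in both genotypes, at 327, 193 and 97.7 TPM in *Arid1a* WT and 362, 171 and 67.1 TPM in *Arid1a* cKO, and neighbours in that order did not overlap between their library values in either genotype.

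The structural beta subunits of the ring were led by *Psmb1*, which fell from 83.3 ± 5.87 to 47.6 ± 1.73 CPM (SD, n = 4; log2 fold change -0.81, standard error 0.06). *Psmb3* and *Psmb4* fell by 0.46 and 0.32 log2 units, both with no overlap. *Psmb3* shares 21.7% of its words with other genes. *Psmb2* was at 36.0 ± 1.55 CPM and 36.3 ± 1.14 CPM (SD, n = 4; log2 fold change 0.01, adjusted p = 0.837, edgeR), and on the log2(TPM + 1) scale it was called lower, at -0.12.

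Beta subunits that replace the constitutive active ones in other tissues were scarce. *Psmb8*, *Psmb9* and *Psmb10* are the interferon-induced subunits of the immunoproteasome of immune cells, and *Psmb11* is the thymus subunit. Of these 4, 2 were called lower, beside 37.5% of all tested genes, and 2 were not called. *Psmb8* (chr17:34198195-34201454) had 5, 10, 10 and 5 counts in *Arid1a* WT libraries and 9, 5, 9 and 9 counts in *Arid1a* cKO libraries, and *Psmb9* (chr17:34182030-34187330) had 4, 4, 6 and 13 and 10, 6, 5 and 1 counts. At this depth no difference was detectable for either, with log2 fold changes of 0.30 (standard error 0.38) and -0.09 (standard error 0.54), and part of these counts could come from genes on the other strand that overlap 14.7% of the *Psmb8* exon bases (*Gm20496*) and 5.79% of the *Psmb9* exon bases (*Tap1*).

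*Psmb10* (chr8:105935728-105938392) was at 2.72, 2.61, 2.66 and 3.05 CPM in *Arid1a* WT and 1.83, 1.77, 1.29 and 1.35 CPM in *Arid1a* cKO, with no overlap (log2 fold change -0.82, standard error 0.17, adjusted p = 4.84e-04, edgeR). For *Psmb11* (Entrez 73902, chr14:54625310-54629556) the values were 3.56, 4.71, 6.57 and 3.18 CPM and 1.40, 1.83, 1.87 and 2.83 CPM, with no overlap but a wide spread among the *Arid1a* WT libraries (log2 fold change -1.20, standard error 0.25, adjusted p = 5.54e-04, edgeR). In TPM these subunits stayed small beside the ones they can replace. *Psmb10* made up 3.45 ± 0.575% of the summed TPM of *Psmb10* and *Psmb7* in *Arid1a* WT and 2.17 ± 0.753% in *Arid1a* cKO (SD, n = 4), and the share of *Psmb8* in *Psmb8* plus *Psmb5* was 0.456 ± 0.187% and 0.672 ± 0.198%. The summed macrophage and blood markers, whose cells use the immunoproteasome, were higher in *Arid1a* cKO, as given above, while *Psmb10* was lower, and the relation between them was not tested.

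The base of the regulatory particle unfolds substrates with a ring of ATPases, the products of *Psmc1* to *Psmc6*. Of these 6 genes 1 was called higher and 2 lower (beside 36.5% and 37.5% of all tested genes), with a median log2 fold change of -0.35. *Psmc1* (Entrez 19179, chr12:100110202-100123364) was at 155, 134, 138 and 167 CPM in *Arid1a* WT and at 74.4, 75, 68.6 and 71.3 CPM in *Arid1a* cKO, 2.05-fold lower with no overlap (log2 fold change -1.04, standard error 0.07, adjusted p = 3.76e-09, edgeR). It shares 32.2% of its words with other genes, mainly *Gm9575*. *Psmc4* fell by 0.60 log2 units (standard error 0.06), from 57.3 ± 4.24 to 37.8 ± 1.68 CPM (SD, n = 4).

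*Psmc3* was the most abundant proteasome RNA in TPM in both genotypes, at 790.5 ± 65.3 TPM in *Arid1a* WT and 807 ± 5.25 TPM in *Arid1a* cKO (SD, n = 4). In CPM it was at 749, 689, 619 and 828 in *Arid1a* WT and 839, 807, 809 and 802 in *Arid1a* cKO. The call of a rise was marginal (log2 fold change 0.18, standard error 0.07, adjusted p = 0.0460, edgeR). *Arid1a* WT library 4 lay above 3 of the *Arid1a* cKO libraries, and the call was lost in 11 of the 17 alternatives (adjusted p 0.00108 to 0.619 over all alternatives), among them those without *Arid1a* cKO library 1, 2, 3 or 4 or *Arid1a* WT library 1, 2 or 3. *Psmc5* and *Psmc6* were not called, at -0.09 and -0.11, but were called lower without *Arid1a* WT library 3 and *Arid1a* WT library 4, respectively.

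The deposited values of *Psmc2* stood far below those of its partners. The ring takes up its ATPases in equal number, but *Psmc2* was at 3.68 ± 1.90 TPM in *Arid1a* WT and 2.11 ± 0.403 TPM in *Arid1a* cKO (SD, n = 4), and *Psmc3* exceeded it by 215 and 381 times. Its level in *Arid1a* WT was 5.79, 9.65, 13.4 and 4.50 CPM, a spread of nearly 3 times between libraries, and in *Arid1a* cKO it was 4.09, 5.82, 6.36 and 5.14 CPM. The log2 fold change of -0.63 (standard error 0.28) was not called (adjusted p = 0.0526, edgeR), and it was called lower in 6 of the 17 alternatives (adjusted p 0.00275 to 0.202 over all alternatives), which were DESeq2, library sizes without TMM, no filter beyond 1 count, the replicate number as a block, and the fits without *Arid1a* WT library 1 or 4. *Psmc2* shares 10.5% of its words with other genes, none of which holds more than 2.21% of them. Its mean in *Arid1a* WT was 8.35 CPM beside 3.68 TPM, whereas *Psmc1* was at 148 CPM beside 151 TPM. The other ATPase genes also had a lower mean in CPM than in TPM in *Arid1a* WT. *Psmc2* reads were thus set against a longer effective transcript than those of its partners. How far the assignment of reads to transcripts sets its level was not tested.

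Of the subunits of the base that are not ATPases, the 3 whose symbols follow the naming rule all fell, where 37.5% of all tested genes did, and the values of *Adrm1*, which does not follow it, are given with the genes that act with the proteasome. *Psmd1* and *Psmd2* encode the large scaffold subunits, and *Psmd4* encodes a ubiquitin receptor. *Psmd1* was at 173, 149.8, 139 and 176 CPM in *Arid1a* WT and 99.7, 92.6, 87.9 and 87.2 CPM in *Arid1a* cKO (log2 fold change -0.80, standard error 0.08). *Psmd2* and *Psmd4* fell by 0.30 and 0.35 log2 units, and none of the 3 overlapped between genotypes. *Psmd2* shares 31.6% of its words with other genes, mainly *Gm5422*. Their summed TPM was 554 ± 42.2 in *Arid1a* WT and 387 ± 7.21 in *Arid1a* cKO (SD, n = 4), a ratio of 0.699.

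The lid removes ubiquitin before a protein enters the core. Of its 8 genes 1 was called higher and 5 lower (beside 36.5% and 37.5% of all tested genes), with a median log2 fold change of -0.44. *Psmd14* (Entrez 59029, chr2:61711694-61800376), which encodes the lid's deubiquitinase, was at 65.0, 58.5, 51.3 and 62.6 CPM in *Arid1a* WT and at 27.0, 29.3, 25.1 and 29.4 CPM in *Arid1a* cKO. The genotypes were far apart beside the spread within each. *Psmd14* RNA was 2.15-fold lower (log2 fold change -1.10, standard error 0.08, adjusted p = 7.97e-09, edgeR). *Psmd7*, whose product pairs with PSMD14, fell by 0.59 log2 units, from 89.0 ± 6.6 to 59.0 ± 0.996 CPM (SD, n = 4).

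*Psmd6*, *Psmd3* and *Psmd13*, scaffold subunits of the lid, fell by 0.58, 0.53 and 0.35 log2 units with no overlap between genotypes. For *Psmd13*, *Arid1a* cKO library 2, at 92.5 CPM, stood above the other 3 *Arid1a* cKO libraries, which had 85 to 85.9 CPM. *Psmd11*, another scaffold subunit, went the other way, from 81.3 ± 4.53 to 97.1 ± 2.88 CPM (SD, n = 4; log2 fold change 0.26, standard error 0.05, adjusted p = 3.76e-04, edgeR). *Psmd12* and *Psmd8* were not called, at 0.05 and -0.01. Base and lid together had 17 genes under the naming rule, 2 called higher (11.8%) and 10 lower (58.8%), beside 36.5% and 37.5% of all tested genes, and their summed TPM was 2739 ± 156 in *Arid1a* WT and 2214 ± 12.5 in *Arid1a* cKO (SD, n = 4), a ratio of 0.808. All 4 *Arid1a* cKO sums were below all 4 *Arid1a* WT sums.

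Chaperones that assemble the base and leave before it is finished are encoded by *Psmd5*, *Psmd9* and *Psmd10*. *Psmd10* (Entrez 53380, chrX:140948425-140956711), also known as gankyrin, had the largest rise of any member. It was at 4.06, 4.02, 4.62 and 4.96 CPM in *Arid1a* WT and at 22.4, 21.9, 21.1 and 23.3 CPM in *Arid1a* cKO. The *Arid1a* cKO libraries were thus 5.01-fold higher (log2 fold change 2.32, standard error 0.08, adjusted p = 4.12e-12, edgeR), and the value lay between 2.28 and 2.40 with each library left out in turn. *Psmd10* is the X-linked member, and X-linked genes are silenced in pachytene spermatocytes. Of the 799 X-linked genes tested, 66.6% were called higher in *Arid1a* cKO and the median log2 fold change was 1.32. *Psmd5* was called lower (log2 fold change -0.21, standard error 0.09, adjusted p = 0.0413, edgeR), with overlapping ranges of 19.7 to 23.9 and 16.0 to 21.2 CPM, and the call was lost in 11 of the 17 alternatives (adjusted p 0.00461 to 0.145 over all alternatives). These were DESeq2, its size factors within edgeR, filterByExpr, length offsets, log2(TPM + 1), and the fits without *Arid1a* cKO library 2, 3 or 4 or *Arid1a* WT library 1, 2 or 4. *Psmd9* was at 31.4 ± 3.65 and 31.3 ± 1.29 CPM (SD, n = 4), and 25.5% of its exon bases overlap *Gm26745* on the other strand.

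Assembly of the core particle is guided by the products of *Psmg1* to *Psmg4*, which work in pairs on the alpha ring. Of the 4, 3 were called lower, beside 37.5% of all tested genes, and 1, *Psmg2*, was not called. *Psmg3* (Entrez 66506, chr5:139823613-139826894) was at 4.90, 4.8, 4.31 and 5.69 CPM in *Arid1a* WT and 1.88, 0.914, 1.20 and 1.67 CPM in *Arid1a* cKO. Its RNA was scarce in both genotypes, and the 3.49-fold difference was the largest fall among the members (log2 fold change -1.80, standard error 0.19, adjusted p = 7.81e-07, edgeR). A gene on the same strand, *Gm26938*, overlaps 9.68% of its exon bases. *Psmg1* was at 30.0, 25.9, 25.1 and 34.2 CPM and 15.7, 14.6, 14.0 and 15.2 CPM, with no overlap (log2 fold change -0.96, standard error 0.09). Its partner *Psmg2* was at 34.1 ± 2.33 and 34.0 ± 1.02 CPM (SD, n = 4; log2 fold change -0.01, adjusted p = 0.934, edgeR). *Psmg4*, the partner of *Psmg3*, fell by 0.32 log2 units (standard error 0.11), and DESeq2 did not call it (adjusted p = 0.0667, 5.57e-04 to 0.0667 over all alternatives), nor did edgeR without *Arid1a* cKO library 3.

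The activators open the gate of the core particle without ATP, and the inhibitor binds it. Of the 5 tested genes of this group 2 were called higher, beside 36.5% of all tested genes, and 3 were not called. *Psme4* (Entrez 103554, chr11:30771775-30881150) was at 665, 661, 611 and 693 CPM in *Arid1a* WT and 1001, 976, 1010.4 and 944 CPM in *Arid1a* cKO. All 4 *Arid1a* cKO values were above all 4 *Arid1a* WT values, a 1.5-fold rise (log2 fold change 0.58, standard error 0.05, adjusted p = 1.33e-07, edgeR). In CPM, which is not corrected for length, the long *Psme4* RNA had the highest *Arid1a* cKO value of the members, and in TPM it was at 157 ± 4.53 and 211 ± 6.53 (SD, n = 4).

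*Psmf1* (Entrez 228769, chr2:151716062-151744199), first described as an inhibitor of the core particle, was at 133, 123, 124 and 139 CPM in *Arid1a* WT and 312, 293, 299.7 and 292 CPM in *Arid1a* cKO. It rose 2.31-fold with no overlap (log2 fold change 1.21, standard error 0.05, adjusted p = 3.57e-11, edgeR). In TPM the rise was larger, from 153 ± 4.37 to 413 ± 7.84 (SD, n = 4). The effective transcript length, as recovered from counts and TPM, was shorter in *Arid1a* cKO, at a ratio to *Arid1a* WT of 0.782. With this length taken into the edgeR fit the log2 fold change was 1.53.

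*Psme3* (chr11:101316213-101323537), a nuclear activator, differed between the count and TPM scales. It was at 97.5, 100.3, 98.4 and 93.7 CPM in *Arid1a* WT and 98.2, 105, 99.1 and 103 CPM in *Arid1a* cKO (log2 fold change 0.06, standard error 0.05, adjusted p = 0.267, edgeR). In TPM it was at 85.8, 86.4, 87.0 and 86.1 in *Arid1a* WT and 131, 135, 125 and 130.0 in *Arid1a* cKO, with no overlap. The effective length changed by a factor of 0.630, and with it in the fit *Psme3* was called higher (log2 fold change 0.69, adjusted p = 5.96e-08, 5.96e-08 to 0.508 over all alternatives). *Psmc6* showed the opposite, with a length ratio of 1.25 and a log2 fold change of -0.47 (adjusted p = 0.00441, 0.00409 to 0.553 over all alternatives) in place of -0.11, although in TPM *Arid1a* WT library 4 (60.7 TPM) lay with the *Arid1a* cKO libraries (53.4 to 62.4 TPM) and not with the other *Arid1a* WT libraries (92.5 to 99.0 TPM). At 39 of the 46 members whose average log2 CPM was 1 or more, the lengths in *Arid1a* cKO and *Arid1a* WT were within 5% of each other.

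*Psme1* and *Psme2*, neighbours on chromosome 14 (chr14:55578494-55581527 and chr14:55587440-55591101), encode the interferon-induced activator of immune cells. *Psme1* was at 5.84, 4.71, 5.27 and 6.05 CPM in *Arid1a* WT and 6.14, 5.42, 7.32 and 5.59 CPM in *Arid1a* cKO. *Psme2* was at 6.83, 5.30, 5.52 and 4.82 CPM and 6.30, 6.68, 5.98 and 7.45 CPM. The ranges overlapped at both genes and neither was called (log2 fold changes 0.17 and 0.23, standard errors 0.12 and 0.12), although *Psme2* was called higher without *Arid1a* WT library 1. *Psme2* shares 33.5% of its words with *Psme2b*.

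**Figure D3:**
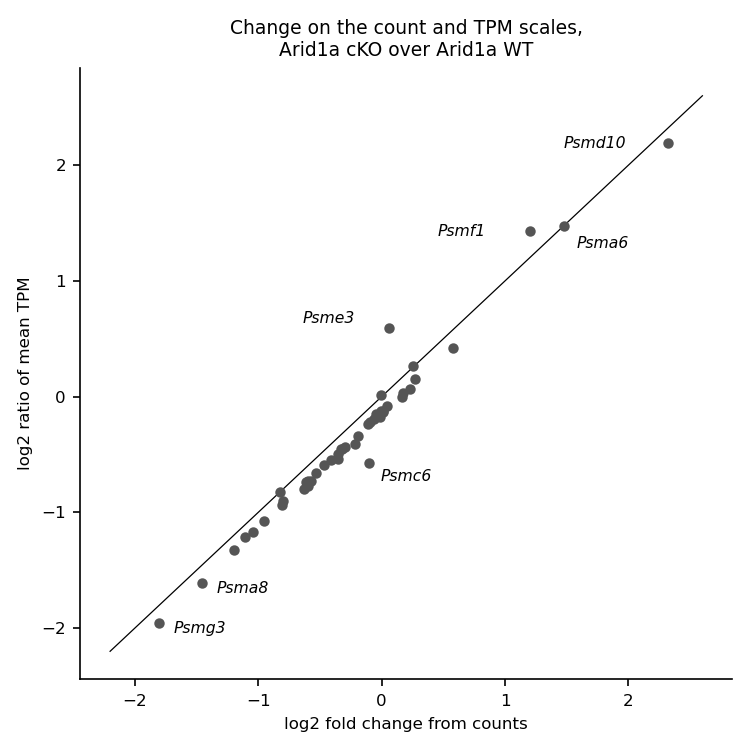
Log2 ratio of mean TPM (y axis) against the log2 fold change from counts (x axis), *Arid1a* cKO over *Arid1a* WT, for the 46 proteasome genes at or above an average log2 CPM of 1; the line marks equal values. Most points lie in parallel just below the line, and *Psme3* and *Psmf1* lie above it, with length ratios of 0.630 and 0.782.

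Summed over all members, the TPM of the genotypes overlapped, and the direction of the difference depended on the scale. The summed TPM of all 49 genes was 5429 ± 271 in *Arid1a* WT and 5192 ± 38.9 in *Arid1a* cKO (SD, n = 4). The sums of *Arid1a* cKO libraries, 5142 to 5226 TPM, lay inside the range of *Arid1a* WT libraries, 5132 to 5786 TPM. The difference of -236 TPM moved most with *Arid1a* WT libraries 4 and 3: it was -117 TPM without library 4 and -335 TPM without library 3. It turned to 268 TPM when the *Arid1a* cKO libraries were shifted by the offset between TPM and counts given after these sums, an alternative chosen after seeing the data. By role, the ratio of *Arid1a* cKO to *Arid1a* WT was 1.86 for the activators and inhibitor, 1.28 for the base chaperones and 1.09 for the alpha ring. For the ATPases it was 0.883, for the constitutive beta ring 0.872, for the lid 0.776, for the base non-ATPases 0.699, for the core chaperones 0.683 and for the tissue-specific beta subunits 0.588. Among the activators and inhibitor the largest gain in mean TPM was that of *Psmf1*, from 153 to 413. *Psme3* and *Psme4* gained less, and *Psme1* and *Psme2* went from 9.49 and 11.3 to 9.49 and 11.9 TPM. Among the base chaperones *Psmd10* went from 5.04 to 23.0 TPM, *Psmd5* from 14.1 to 10.6 and *Psmd9* from 34.4 to 34.6. The genotypes overlapped in the alpha ring sum, in which the mean gain of *Psma6* exceeded the loss of *Psma8*, and were apart in the sums of the other 8 roles as deposited. With the shift, 6 of the 9 roles were apart. The sums of the activators and inhibitor, the base chaperones and the alpha ring were higher in *Arid1a* cKO, and those of the lid, the base non-ATPases and the core chaperones were lower. The ATPases (1185 to 1205 TPM in *Arid1a* cKO, beside 1164 to 1320 TPM in *Arid1a* WT), the constitutive beta ring (927 to 992 TPM, beside 951 to 1096 TPM) and the tissue-specific beta subunits then overlapped.

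The TPM scale itself differed between genotypes. The genes in the table made up 78.1% to 81.1% of the TPM total of each *Arid1a* WT library and 88.1% to 88.6% of that of each *Arid1a* cKO library. The median over 46 members of the log2 TPM ratio minus the log2 fold change from counts was -0.13, and over all 12997 genes above the same level it was also -0.13, so this offset was not particular to the proteasome genes. On the log2(TPM + 1) scale, where limma was used, 7 members were called higher and 30 lower. Those called there but not by edgeR on the counts were *Psma3*, *Psma4*, *Psmb2*, *Psmb7*, *Psmc5*, *Psmc6*, *Psmd8* and *Psmg2*, all lower, and *Psme3*, higher, and of these *Psma3*, *Psma4*, *Psmb7*, *Psmc5* and *Psmc6* were also called lower with library sizes without TMM.

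**Figure D4:**
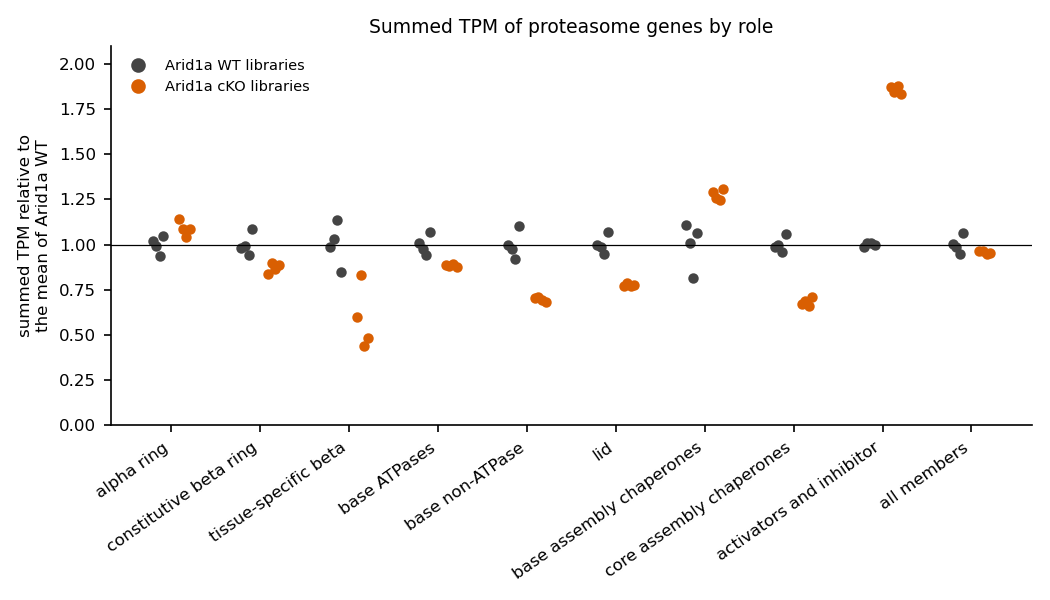
Summed TPM of the proteasome genes of each role in each library, divided by the mean of the 4 *Arid1a* WT libraries, which is drawn as a line at 1; grey points are *Arid1a* WT and orange points *Arid1a* cKO. The activators and inhibitor lie near 1.86 in *Arid1a* cKO, the base non-ATPases near 0.699 and the core assembly chaperones near 0.683, while the sums of all members overlap. Within the activators and inhibitor the largest gain in mean TPM is that of *Psmf1*.

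Genes that act with the proteasome but fall outside the naming rule moved in both directions. Of 42 such genes, all tested, 16 were called higher (38.1%, against 36.5% of all genes) and 18 lower (42.9%, against 37.5%), with a median log2 fold change of -0.03. Among subunits and assembly factors, *Pomp*, the maturation factor of the beta ring, was at 48.6, 42.4, 41.9 and 48.1 CPM in *Arid1a* WT and 21.8, 21.9, 19.7 and 20.5 CPM in *Arid1a* cKO (log2 fold change -1.11, standard error 0.07, adjusted p = 1.55e-09, edgeR). *Sem1*, a small lid subunit, went the other way, with 56.6, 52.3, 47.4 and 57.5 CPM and 93.3, 89.7, 88.8 and 92.2 CPM (log2 fold change 0.77, standard error 0.06). *Adrm1*, a ubiquitin receptor of the base, was at 109, 100.01, 92.5 and 108 CPM and 93.6, 90.3, 90.7 and 86.6 CPM, a fall of 0.18 log2 units (standard error 0.06, adjusted p = 0.0107, edgeR) in ranges that overlapped. *Ecpas*, a scaffold that binds proteasomes, fell by 0.66 log2 units, and *Akirin1* and *Akirin2* rose by 0.62 and 0.48.

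Proteasome subunit genes are induced by NFE2L1, which is freed from the endoplasmic reticulum by VCP, stripped of glycans by NGLY1 and cleaved by DDI2. *Nfe2l1* was at 77.5, 74.8, 74.1 and 79.7 CPM in *Arid1a* WT and 47.3, 47.4, 53.1 and 48.0 CPM in *Arid1a* cKO, with no overlap (log2 fold change -0.64, standard error 0.05, adjusted p = 4.49e-08, edgeR). *Ddi2* and *Vcp* fell by 0.90 and 0.83 log2 units, while *Ngly1* rose by 1.43. The relative *Ddi1*, a protease gene of the same family, had the largest change of the list, at 47.6, 44.4, 43.7 and 49.4 CPM in *Arid1a* WT and 280.0, 261, 263 and 254 CPM in *Arid1a* cKO (log2 fold change 2.51, standard error 0.06, adjusted p = 5.40e-14, edgeR). *Nfe2l2*, a related factor of the oxidative stress response, rose by 0.99 log2 units from 8.44 ± 1.04 CPM (SD, n = 4).

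Of the genes that encode ubiquitin, *Rps27a* fell by 1.00 log2 units and *Ubb* was not called (0.06). *Uba1*, the main ubiquitin-activating enzyme and an X-linked gene like *Psmd10*, was at 50.7, 49.6, 53.4 and 57.6 CPM in *Arid1a* WT and 192, 203, 193 and 182 CPM in *Arid1a* cKO (log2 fold change 1.86, standard error 0.06, adjusted p = 7.25e-13, edgeR). Of the VCP cofactors, *Ufd1* rose by 0.86 and *Nploc4* fell by 0.94 log2 units.

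The interferon and antigen processing genes, which share their inducers with *Psmb8* to *Psmb10*, were called higher at 2 of 10 and lower at 5, where 36.5% and 37.5% of all tested genes were. *Tap1*, a peptide transporter gene that lies between *Psmb9* and *Psmb8*, had 1.04, 0.915, 1.40 and 0.682 CPM in *Arid1a* WT and 0.108, 0.343, 0.526 and 0.193 CPM in *Arid1a* cKO, with no overlap but at levels near those of its neighbours (log2 fold change -1.72, standard error 0.40, adjusted p = 0.00129, edgeR). *Tapbp* fell by 0.83 log2 units and *H2-K1* by 0.68, while *H2-D1* rose by 0.25.

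**Figure D5:**
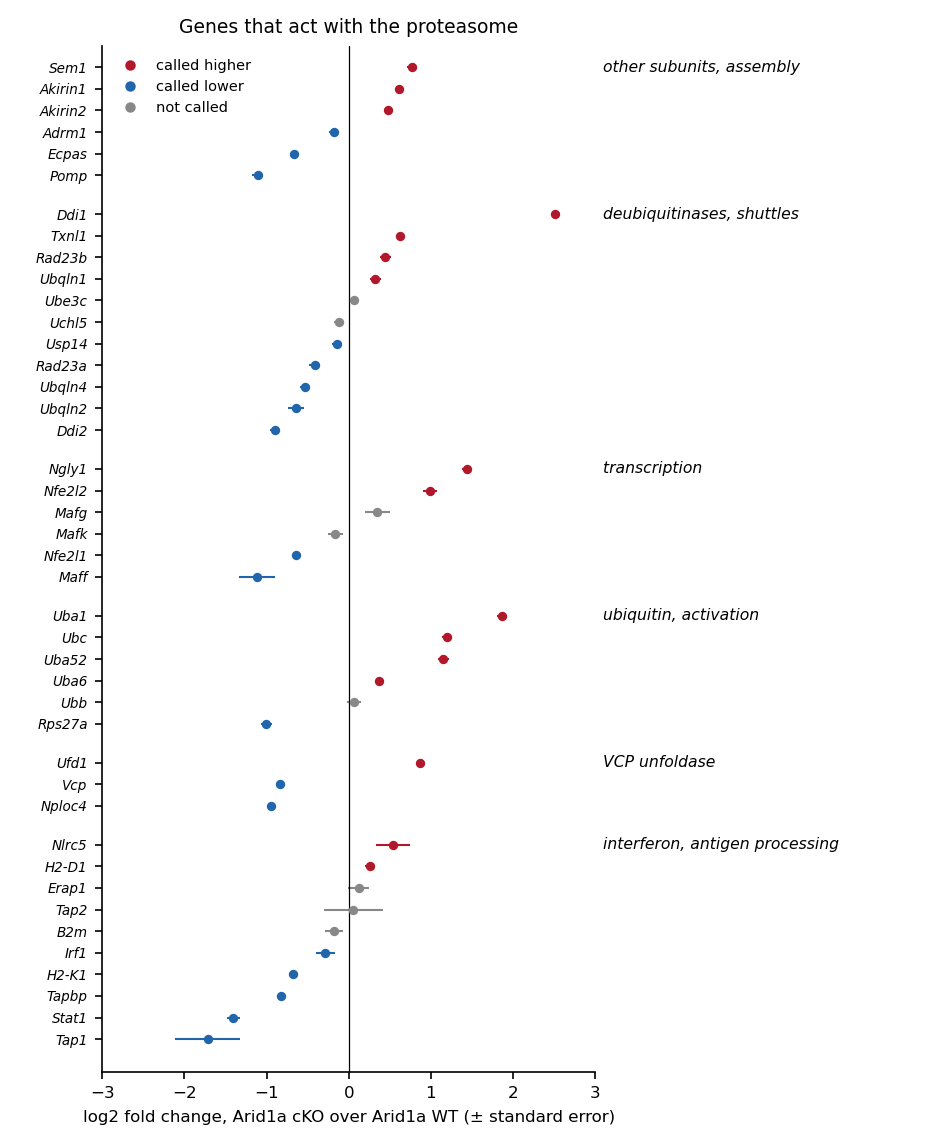
Log2 fold change of 42 genes that act with the proteasome, *Arid1a* cKO over *Arid1a* WT, on the x axis, grouped by function, with standard errors from edgeR. Red points are the 16 genes called higher and blue points the 18 called lower, and the values run from -1.72 at *Tap1* to 2.51 at *Ddi1*.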

How the data were processed

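Transcript abundance in pachytene spermatocytes enriched by Sta-Put was compared over 4 *Arid1a* WT and 4 *Arid1a* cKO libraries, grouped by their labels. The authors quantified 50 bp paired-end reads with Salmon and summarized them to genes with tximport on mm10. They deposited estimated counts per gene, which are corrected for neither library size nor transcript length, and TPM, which the authors took from the same quantification and which are scaled to a fixed total per library over all targets. Their list of differentially expressed genes holds DESeq2 log2 fold changes, standard errors and p-values and was not used here. All columns were used (0 left out).

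Entrez IDs were matched to RefSeq of GRCm38.p6 (21036 of 21058), which also gave coordinates and promoter sequences. Estimated counts were rounded, and the 17643 genes with at least 10 counts over the 8 libraries were tested in edgeR 4.0.16 (R 4.3.3; TMM, glmQLFit, then glmQLFTest on genotype alone), with Benjamini-Hochberg adjustment over all of them and a threshold of 0.05. Fold differences are those fitted by edgeR. Words of 31 bases shared between genes, and exon overlaps, came from a GENCODE mm10 transcript set and annotation. Effective lengths were recovered from the ratio of counts to TPM. On simulated counts for 17643 genes with 200 changed 2-fold, the edgeR step found 100% of those 200, and 6.98% of what it called had not been changed. The changed genes were drawn only from the better counted ones, and every gene was given the same dispersion. The 100% therefore does not hold for members with few counts, such as *Psmb8* and *Psmb9*.

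Alternatives were DESeq2 1.42.0, library size without TMM, edgeR with DESeq2 size factors, filterByExpr in place of the filter, a filter of only 1 count, the replicate number as a block, length offsets, limma 3.58.1 on log2(TPM + 1) and log2(TPM + 0.1), and each library left out in turn. For summed TPM, a shift of the *Arid1a* cKO libraries by the median offset between TPM and counts was added after seeing the data. Genes given in full were the partners *Psma7* and *Psma8*, *Psmb5* to *Psmb10*, *Psme1* to *Psme4*, *Psmd10*, and the 5 called members with the largest rise and the 5 with the largest fall at an average log2 CPM of at least 1. From the list of genes that act with the proteasome they were *Adrm1*, *Sem1*, *Pomp*, *Nfe2l1*, *Tap1* and the 3 called genes with the largest change. Others were named after their values were seen. The members and lists were chosen with earlier results of these data known. The counting is not stated to use strand, so overlapping genes on opposite strands cannot be told apart. Some genes of these lists are not reported here by name.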

Additional observations from a re-analysis of the deposited data

Results flagged for a closer look

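In *Psmd13*, which encodes a scaffold subunit of the lid, *Arid1a* cKO library 2 stood above the other libraries of its genotype, at 92.5 CPM where they were at 85.03 to 85.92 CPM. The gap to the nearest library was 0.882 of the whole range of the 4 values. It was the only such value among 96 groups of 4 libraries examined (48 members in 2 genotypes), where chance gives about 4.8. The *Arid1a* cKO value of library 2 was still below all *Arid1a* WT values of *Psmd13*, and the fall was called with each library left out in turn.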

How the results depend on the processing

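Over the alternatives run, 6 to 7 members were called higher and 20 to 31 lower, and among the genes that act with the proteasome 15 to 17 were called higher and 16 to 21 lower. Of the 30 members called, 26 kept call and direction in every alternative, and the calls of *Psma1*, *Psmc3*, *Psmd5* and *Psmg4* were each lost in at least 1. With each library left out in turn, 6 to 7 members were called higher and 20 to 24 lower, the genes that act with the proteasome gave 15 to 17 higher and 16 to 19 lower, the median log2 fold change of the members lay between -0.25 and -0.14, and the difference in summed TPM between -335 TPM (without *Arid1a* WT library 3) and -117 TPM (without *Arid1a* WT library 4). With the *Arid1a* cKO libraries shifted by the offset between TPM and counts over all genes, chosen after seeing the data, the difference in summed TPM turned to 268 TPM. The median moved from -0.15 to -0.28 with length offsets, -0.35 on log2(TPM + 1) and -0.37 on log2(TPM + 0.1), while that of all genes was -0.02, -0.05 and -0.10. The cause was not tested.

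Among single members, signs turned only in those not called by edgeR on the counts. With DESeq2, *Psmd8*, *Psmd9* and *Psmg2* turned to 0.0149, 0.0244 and 0.022. With its size factors within edgeR, *Psmd8*, *Psmd9* and *Psmg2* turned to 0.0149, 0.0248 and 0.0221. With filterByExpr, *Psmd8*, *Psmd9* and *Psmg2* turned to 0.00984, 0.0195 and 0.0159. Without TMM, *Psma5*, *Psmb2*, *Psmd12* and *Psme3* turned to -0.0866, -0.0845, -0.0473 and -0.0415. With length offsets, *Psma5*, *Psmb2*, *Psmb9* and *Psmd9* turned to -0.0381, -0.0274, 0.294 and 0.104. On log2(TPM + 1), *Psma5*, *Psmb2*, *Psmb9*, *Psmd12* and *Psmd9* turned to -0.13, -0.122, 0.017, -0.0754 and 0.0183. On log2(TPM + 0.1), *Psma5*, *Psmb2*, *Psmb9*, *Psmd12* and *Psmd9* turned to -0.133, -0.123, 0.108, -0.0761 and 0.0191. With a library left out, the ranges of *Psma4* from -0.12 to 0.0141, *Psma5* from -0.0572 to 0.0627, *Psma7* from -0.0946 to 0.00605, *Psmb2* from -0.0109 to 0.0534 and *Psmb7* from -0.101 to 0.0556 crossed 0, as did those of *Psmb9* from -0.522 to 0.42, *Psmd12* from -0.0289 to 0.126, *Psmd8* from -0.0618 to 0.0669, *Psmd9* from -0.0633 to 0.0523 and *Psmg2* from -0.041 to 0.0533.

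With the replicate block the test called 7 members higher and 24 lower, the added call being *Psmc2*, and *Psmd9* turned to 0.00332. The samples share only a number: deviations of same-numbered libraries correlated at 0.16, 0.01, 0.09 and -0.14, and only library 1 correlated best with its own number. Depth limited *Psmb8* and *Psmb9*, which had at most 13 counts in a library.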
